A study of Mus musculus with 24 samples.

Results

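The 37 genes described here encode proteins of the synaptic vesicle and of the machinery that releases its contents, out of 39017 genes in the count tables. They were chosen by name: each symbol was mapped to its Ensembl gene, the 2 sequencing lanes of a library were summed, and the genes were followed over the 6 groups of the study to ask whether progenitors without Prdm16 gain synaptic genes early. Earlier results of these data were known when the members were chosen, which limits the comparison of their counts with the shares of all genes. All 37 symbols had an entry in the tables. By role they were 8 synaptotagmins (the calcium sensor family), 3 synapsins, 7 SNARE proteins and their regulators, 5 vesicle membrane proteins, 7 active zone proteins, 4 Rab3 proteins and effectors and 3 proteins of vesicle endocytosis.

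RNA-seq was performed on cells sorted from the mouse cerebral cortex at E15.5, with 4 libraries in each of the 6 groups. The sorted populations were PAX6+ cells, labelled radial glia (the stem cells of the cortex), TBR2+ cells, labelled intermediate progenitors (their neurogenic daughters), and PAX6-TBR2- cells, the neurons. Both genotypes were homozygous for floxed Prdm16: WT libraries are labelled Prdm16 flox/flox, and KO libraries Emx1Ires-Cre; Prdm16flox/flox. Cre was present in KO only, so effects of the Cre allele and of the loss of Prdm16, a transcription regulator with zinc fingers, cannot be told apart. Emx1 drives Cre in the dorsal telencephalic lineage. Interneurons, which enter the cortex from ventral regions, lie outside it. The replicates are called biological, but embryos and litters are not named, so p-values measure the spread between these libraries, which may in part be technical.

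In a mature synapse, vesicles filled with transmitter are held in clusters by synapsins, docked at the active zone by Rab3, RIM, Munc13 and large scaffold proteins, and fused with the plasma membrane by the SNARE proteins. Calcium entry triggers fusion through synaptotagmins, complexins clamp and promote it, and the membrane is then retrieved through clathrin and dynamin. In the developing cortex most of these genes are known as products of postmitotic neurons, although several members, among them Vamp2 and some synaptotagmins, also serve general membrane traffic in other cells.

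Depth per library ran from 7.62 to 12.6 M counts for PAX6+ cells, from 6.4 to 8.22 M for TBR2+ cells, and from 4.95 to 30.0 M for PAX6-TBR2- cells. Prdm16 itself measured 268, 243, 288 and 209 CPM (reads scaled to a common library total) in WT PAX6+ replicates 1 to 4 and 225, 181, 182 and 160 CPM in KO PAX6+. It was at 46 to 79.3 CPM in WT TBR2+ against 42.2 to 59.8 CPM in KO TBR2+, and at 13.7 to 33.4 CPM in WT PAX6-TBR2- against 11.3 to 29.1 CPM in KO PAX6-TBR2-. The genotypes overlapped in each population, and no difference passed the test (adjusted p = 0.058, 0.9 and 0.814). The counts are per gene, so reads of the floxed part were not separated and this level does not check the labels. Population labels matched their markers: Pax6 averaged 434 CPM in WT PAX6+, 241 CPM in WT TBR2+ and 29.9 CPM in WT PAX6-TBR2-, and Eomes, which encodes TBR2, averaged 77.6, 930 and 42.1 CPM. The library names carry a different prefix for each population, so library preparation and population cannot be told apart in any comparison between populations.

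The normal course of the members was examined first, in the WT libraries. The summed CPM of the 37 members was 838, 763, 840 and 756 in WT PAX6+, 2103, 2280, 2166 and 2542 in WT TBR2+, and 4597, 4018, 4548 and 3977 in WT PAX6-TBR2-. The populations did not overlap. In bulk libraries, fewer cells of a type and less RNA per cell cannot be told apart. From PAX6+ to TBR2+, 29 of the 36 members tested were called higher and 4 lower, called meaning an adjusted p under 0.05 in edgeR's quasi-likelihood test. Over all genes tested in that comparison, 63.2% were called, 31% higher and 32.2% lower. The members' median log2 fold change was 1.54, beside -0.02 for all genes.

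From TBR2+ to PAX6-TBR2-, 29 of 36 members were called higher and 5 lower, where 49% of all genes were called (25.6% higher, 23.4% lower). The median was 1.78, beside -0.01 for all genes. Between the ends of the course, PAX6-TBR2- against PAX6+, 32 of 37 members were called higher and 2 lower, with 66.6% of all genes called (32.9% higher, 33.7% lower) and medians of 3.14 and -0.01.

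**Figure D1:**
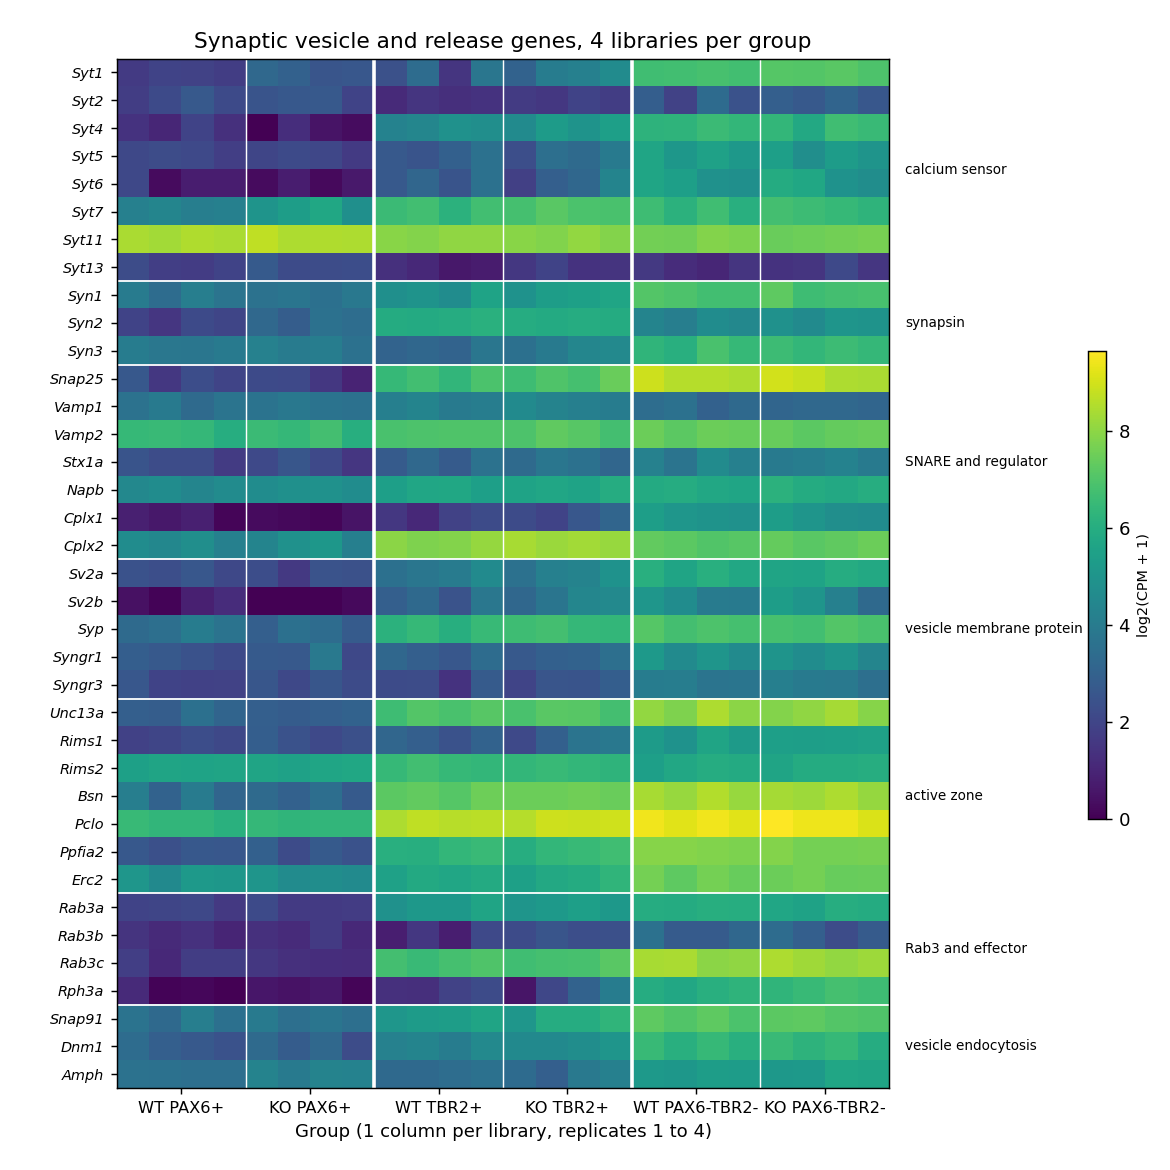
Levels of the 37 members as log2(CPM + 1), 1 row per gene grouped by role and 1 column per library (4 for each group). Most rows brighten from left to right through the sorted populations, Syt11 is bright throughout, and Syn2 and Cplx2 are brightest in TBR2+.

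At both steps, 23 members were called higher. They include Snap25, the plasma membrane SNARE of synaptic release, at 3.52 ± 1.42 CPM in WT PAX6+, 98.3 ± 17.1 in WT TBR2+ and 398 ± 55.8 in WT PAX6-TBR2- (SD, n = 4 each). Syp, the abundant vesicle protein synaptophysin, rose from 11.7 ± 2.68 through 79.4 ± 11.7 to 119 ± 13.3 CPM. Stx1a, the syntaxin partner of Snap25, rose from 3.57 ± 0.992 through 7.93 ± 2.59 to 17.9 ± 4.89 CPM. These genes belong to the same fusion complex or vesicle, and the size of their steps differed: the log2 fold change of Snap25 was 4.82 at the first step and 2.02 at the second.

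Vamp2, the vesicle SNARE, was already at 82.2 ± 12.6 CPM in WT PAX6+ and rose to 124 ± 4.62 and 167 ± 13.6 CPM. Syn1, a synapsin that tethers vesicles, rose from 13.2 ± 2.99 through 32.3 ± 10 to 116 ± 13.5 CPM. Syt1, the fast calcium sensor, stood at 2.48 ± 0.325, 7.2 ± 5.06 and 107 ± 5.39 CPM, so that its log2 fold change was 1.54 (SE 0.41) at the first step and 3.89 (SE 0.31) at the second. The largest log2 fold changes of members at the first step belonged to Rab3c, a small GTPase of the vesicle (5.74, SE 0.18), Snap25 (SE 0.21) and Syn2 (4.50, SE 0.16).

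The other members did not climb at both steps. Syn2, Cplx2, Rims2 and Vamp1 were called higher in TBR2+ than in PAX6+ and lower again in PAX6-TBR2-. Syn2 averaged 2.79, 62.6 and 20.9 CPM along the course, and Cplx2, a complexin of the SNARE complex, 22.5, 245 and 145 CPM. Rims2, an active zone organiser, averaged 47.1, 90.9 and 54.6 CPM, and Vamp1, a second vesicle SNARE, 11.7, 16.8 and 9.24 CPM. Syt7, a slow and sensitive calcium sensor, and Napb, a cofactor of SNARE disassembly, were called higher at the first step only. Syngr3, Rab3b and Amph were called higher at the second step only.

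Of the 4 members called lower at the first step, only Syt11 and Syt13 were also called lower in PAX6-TBR2- than in PAX6+. Syt11, a synaptotagmin without a calcium sensor's binding site that acts in membrane traffic, fell at both steps, from 342 ± 17.3 through 251 ± 16.2 to 208 ± 21.3 CPM. Syn3 and Syt2 were called lower at the first step and higher at the second, Syn3 at 14.2, 8.96 and 87.6 CPM and Syt2 at 3.71, 1.53 and 5.72 CPM. Syt13, another synaptotagmin without calcium binding, was called lower in TBR2+ than in PAX6+ (2.83 against 0.965 CPM) and was too low to be tested at the second step. Cplx1 was too low to be tested at the first step (0.563 and 2.36 CPM) and reached 33.4 CPM in PAX6-TBR2-. Of these calls, 3 were lost under some alternative: Syngr1 at the first step, Syt11 at the second, and Syt13 between the ends of the course.

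Levels of different genes were compared per kilobase of exon. In WT PAX6+, Syt11 led at 65.7 ± 3.32 CPM per kb, followed by Vamp2 at 21.6 ± 3.32. Cplx2 (4.57 ± 0.85), Rims2 (4.53 ± 0.19) and Syn1 (4.01 ± 0.907) came next and did not differ beyond their spread. Sv2b and Rph3a stood last, at 0.0762 ± 0.0656 and 0.0765 ± 0.126 CPM per kb. In WT TBR2+ the first 2 were Cplx2 (49.6 ± 4.81) and Syt11 (48.2 ± 3.11), again within their spread. In WT PAX6-TBR2- the order opened with Snap25 (58.5 ± 8.21), Vamp2 (44 ± 3.56) and Syt11 (39.9 ± 4.08), the last pair within their spread, and closed with Syt13 (0.419 ± 0.123). All these values are levels in CPM per kb. In WT PAX6+ no member beside Syt11 and Vamp2 passed 4.57 CPM per kb, and the neuronal SNARE Snap25 stood at 0.519 ± 0.21.

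**Figure D2:**
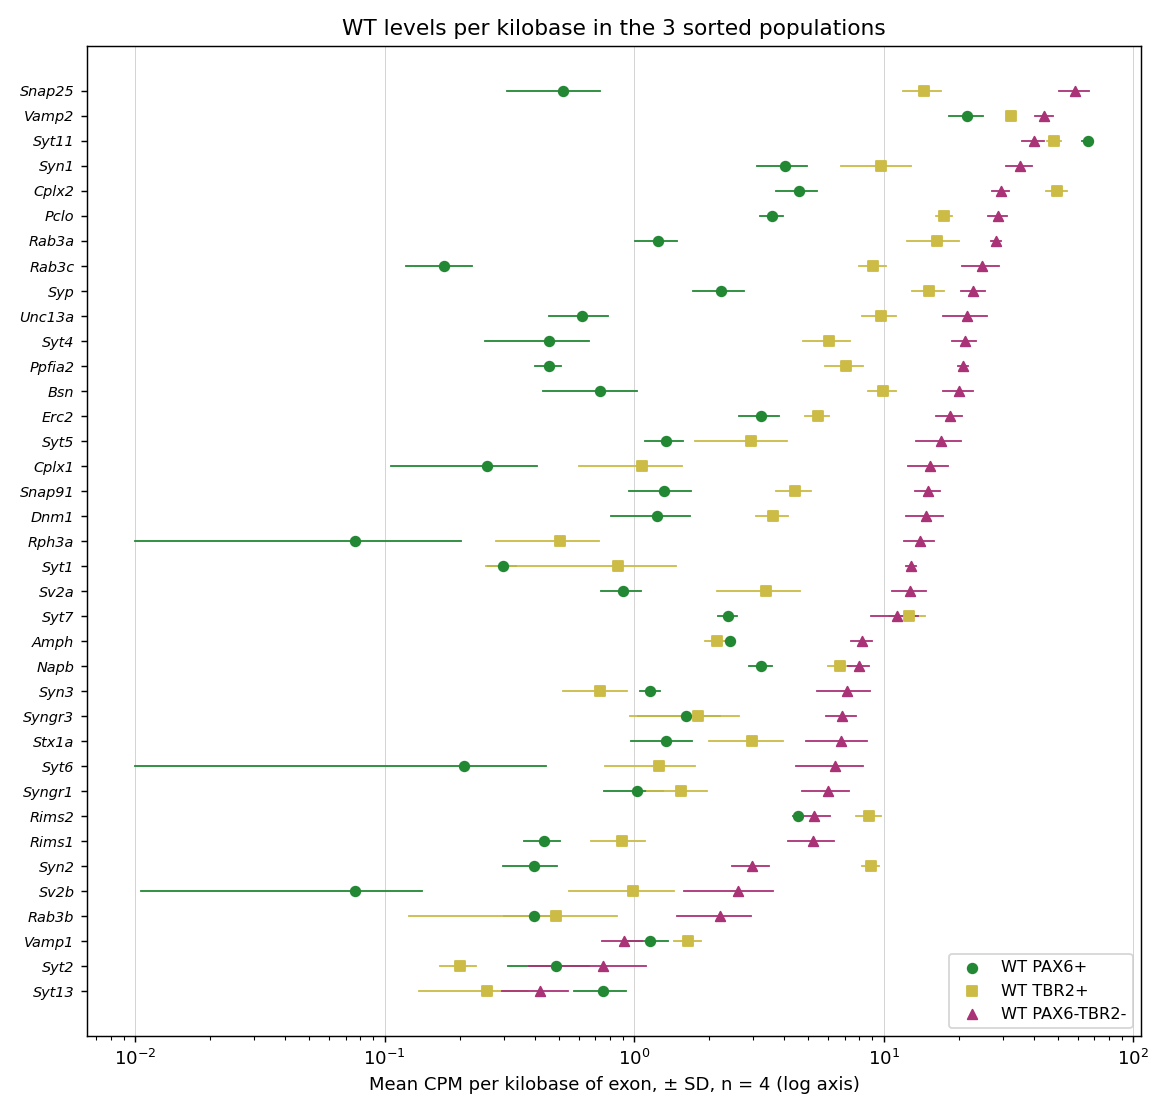
Mean level of each member per kilobase of exon (log axis) in the 3 WT populations, with bars of 1 SD over 4 libraries. Bars that would pass below 0.01 end there. Snap25 moves from 0.519 to 58.5 CPM per kb between PAX6+ and PAX6-TBR2-, while Vamp2 and Syt11 stay within 21.6 to 65.7.

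The loss of Prdm16 in radial glia was then examined. In KO against WT PAX6+, 4 members rose, none was called lower and 29 did not pass the test, out of 33 tested: Syn2 (3.24-fold), Syt1 (2.57-fold), Syt7 (2.15-fold) and Amph (1.61-fold). Over all 14212 genes tested, 3.64% were called, 2.45% higher and 1.19% lower. The members' median log2 fold change was 0.06, beside 0.00 for all genes. Above 0 were 20 members (60.6%, beside 50.4% of all genes), and 13 were below. Without KO PAX6+ replicate 3 the count above 0 was 15 and the median -0.02. At an unadjusted p under 0.05, 7 members differed, 5 of them higher. DESeq2 called 4 members. No share of all genes was computed at that threshold or for DESeq2. The called genes were 2 calcium sensors, 1 synapsin and 1 endocytic protein, and no SNARE, vesicle membrane, active zone or Rab3 member was called.

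Syn2, a synapsin of the vesicle surface, measured 2.8, 1.85, 3.45 and 3.05 CPM in WT PAX6+ replicates 1 to 4 and 8.67, 6.28, 11.1 and 9.86 CPM in KO PAX6+. Each KO library lay above each WT library. The log2 fold change was 1.69 (SE 0.25, adjusted p = 0.000586), from 27 to 55 reads per WT library and 82 to 127 per KO library. The KO level reached 14.4% of the mean of WT TBR2+ and 43.1% of that of WT PAX6-TBR2-, from 4.45% and 13.4% in WT PAX6+.

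Syt1 measured 2.1, 2.8, 2.7 and 2.34 CPM in WT PAX6+ and 8.67, 7.04, 4.91 and 5.1 CPM in KO PAX6+. The genotypes did not overlap, and KO replicates 1 and 2 were the highest. The log2 fold change was 1.36 (SE 0.25, adjusted p = 0.00432), from 23 to 43 reads per WT library and 56 to 92 per KO library. This sensor of synchronous release stood in KO PAX6+ at 89.4% of the mean of WT TBR2+, but at 6% of that of WT PAX6-TBR2-. The WT TBR2+ libraries were spread widely, at 4.25, 9.78, 1.83 and 12.9 CPM, so the first percentage is a rough one.

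Syt7 measured 17.3, 20, 16.4 and 17.3 CPM in WT PAX6+ and 31.3, 40.4, 53.4 and 27 CPM in KO PAX6+. The ranges did not overlap, and the KO libraries were the more spread. The log2 fold change was 1.11 (SE 0.18, adjusted p = 0.00164), and the KO level was 40.2% of the mean of WT TBR2+ and 44.8% of that of WT PAX6-TBR2-.

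Amph, which brings dynamin to the neck of clathrin-coated vesicles, measured 11.5, 11.1, 10.6 and 10.6 CPM in WT PAX6+ and 18.8, 14.5, 18.8 and 18.3 CPM in KO PAX6+. All KO libraries were above all WT libraries, with KO replicate 2 nearest to them. The log2 fold change was 0.68 (SE 0.15, adjusted p = 0.0114). Unlike the other called members, Amph was not called between WT PAX6+ and WT TBR2+ (log2 fold change -0.16), and its KO PAX6+ level was 181% of the mean of WT TBR2+ and 47.3% of that of WT PAX6-TBR2-. Counting all members whose 4 KO libraries lay above their 4 WT libraries adds Syt11, which makes 5 of 33, beside 5.02% of all genes. None lay wholly below, beside 3.66% of all genes.

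**Figure D3:**
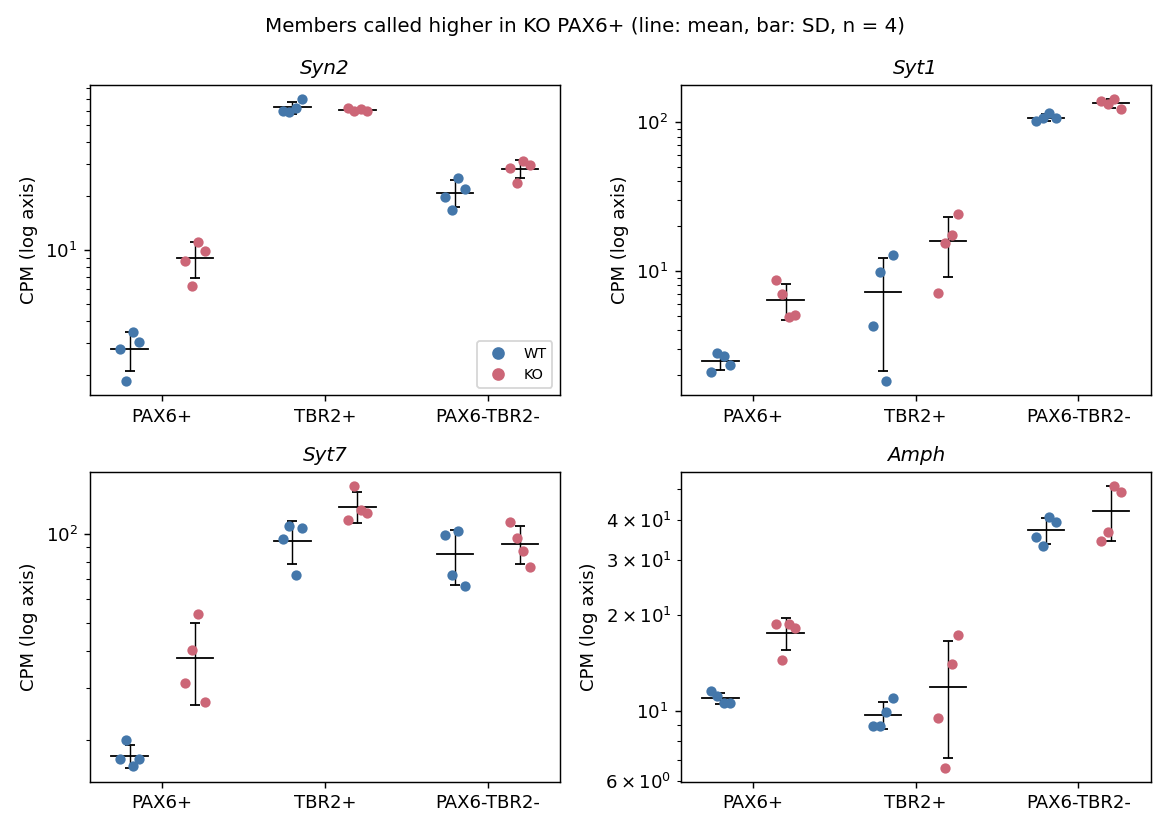
CPM (log axis) of the 4 members called higher in KO PAX6+, 1 point per library, with mean and SD (n = 4), in each population and genotype. In PAX6+ the KO points lie above the WT points for each gene, and for Syn2 the TBR2+ points of both genotypes overlap (means 62.6 in WT and 60.6 CPM in KO).

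The 4 calls held in all 16 alternatives run for this comparison. Exons of Syn2 overlap those of Timp4, a protease inhibitor gene on the opposite strand, by 90 bases. The strand setting of the counting is not given in the sources used here, so reads of the pair may be mixed. Timp4 itself was at 0.965 ± 0.184 CPM in WT PAX6+ and 2.32 ± 0.467 CPM in KO PAX6+ (log2 fold change 1.25, SE 0.34, adjusted p = 0.0568). Syt7 overlaps Gm26859 on the opposite strand by 384 bases, and Gm26859 was at 2.86 ± 0.452 and 4.13 ± 1.48 CPM (log2 fold change 0.55, adjusted p = 0.519). The exons of Syt1 and Amph overlap no other annotated exon.

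Syn2 lies on chromosome 6 (GRCm38, 115134902 to 115282006, plus strand), Syt1 on chromosome 10 (108497650 to 109010982, minus strand), Syt7 on chromosome 19 (10389090 to 10453180, plus strand) and Amph on chromosome 13 (18948205 to 19150921, plus strand). The 250 bases before the RefSeq start (GRCm38.p6) are printed for those of the 4 called genes that have an entry. Where a gene has more than 1 start, only the first listed is printed. Syn1 is added as a synapsin that was not called. The windows are chr6:115134652-115134901 (plus strand) for Syn2, chr10:109010976-109011225 (minus) for Syt1, chr13:18948101-18948350 (plus) for Amph and chrX:20920919-20921168 (minus) for Syn1. Capitals mark matches to 5 short motifs searched on both strands: the left and right parts of the RE1 element, to which the neuronal repressor REST binds (TCAGCACC and GGACAGC), the cyclic AMP response element (TGACGTCA), the GC box (GGGCGG) and the E-box CAGCTG.
Syn2: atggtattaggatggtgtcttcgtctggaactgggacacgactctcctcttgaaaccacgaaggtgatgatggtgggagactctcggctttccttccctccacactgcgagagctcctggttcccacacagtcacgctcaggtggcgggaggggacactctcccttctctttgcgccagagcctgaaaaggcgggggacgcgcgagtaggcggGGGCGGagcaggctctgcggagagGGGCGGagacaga
Syt1: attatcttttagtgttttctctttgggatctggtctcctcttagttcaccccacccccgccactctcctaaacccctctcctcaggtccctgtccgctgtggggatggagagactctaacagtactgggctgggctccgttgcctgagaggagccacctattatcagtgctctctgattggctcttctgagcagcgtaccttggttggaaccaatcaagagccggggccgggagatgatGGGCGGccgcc
Amph: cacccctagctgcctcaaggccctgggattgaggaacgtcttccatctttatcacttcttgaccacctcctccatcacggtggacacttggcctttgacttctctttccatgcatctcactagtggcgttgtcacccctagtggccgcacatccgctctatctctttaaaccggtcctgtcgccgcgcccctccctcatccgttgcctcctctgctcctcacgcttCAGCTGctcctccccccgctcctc
Syn1: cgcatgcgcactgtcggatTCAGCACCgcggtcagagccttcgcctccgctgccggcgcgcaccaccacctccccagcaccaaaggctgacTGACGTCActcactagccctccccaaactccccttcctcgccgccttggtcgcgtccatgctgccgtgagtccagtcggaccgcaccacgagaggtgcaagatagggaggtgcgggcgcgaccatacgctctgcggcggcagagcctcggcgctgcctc
In the printed windows Syn2 holds 2 GC boxes, Syt1 holds 1, Amph an E-box, and Syn1 the left RE1 part and a cyclic AMP response element. No matches overlapped in these windows. The other window of Syt1, not printed, holds an E-box, and the other window of Syn2 holds none of the 5 motifs. Of the 37 members, 28 had an entry, with 39 start sites between them. The GC box occurred in 59% of the 39 windows, beside 32.7% of all 32851 windows of this length. The E-box occurred in 30.8% (13% of all), the right RE1 part in 10.3% (5.28%), the left RE1 part in 2.56% (1.32%) and the cyclic AMP response element in 2.56% (1.55%). The right RE1 part lay in 4 windows of 2 members, Syt6 and Rph3a. All 3 windows of Syt6 held it, and its windows 1 and 2 overlap. The left RE1 part and the cyclic AMP response element lay in 1 window each, that of Syn1. The members' windows were richer in GC, with a median of 60.4% and 13 CpG sites, beside 52.4% and 6 for all windows. A match describes letters only, and a window without one lacks only these letters.

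Other neuronal members were not called in KO PAX6+. Snap25 measured 5.34, 1.98, 3.83 and 2.95 CPM in WT and 3.51, 3.37, 1.93 and 0.935 CPM in KO, a log2 fold change of -0.52 (SE 0.39, adjusted p = 0.696). Syn1 averaged 13.2 in WT and 12 CPM in KO (-0.13, SE 0.18), Vamp2 82.2 and 89 CPM (0.12, SE 0.15), and Stx1a 3.57 and 3.42 CPM (-0.06, SE 0.32). Syp averaged 11.7 and 8.21 CPM (-0.50, SE 0.22, adjusted p = 0.373). The WT and KO ranges overlapped for each of these genes.

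By role, the 7 active zone members had log2 fold changes from -0.55 (Bsn, a giant scaffold) to 0.51 (Rims1, a vesicle tether), with a median of 0.02. Unc13a, which primes vesicles, had -0.25, Erc2 -0.24, Pclo 0.02, Ppfia2 0.03 and Rims2 0.07. The SNARE group ranged from -0.52 to 0.23 (Napb) over 6 tested members, with Cplx2 at 0.14 and Vamp1 at 0.04. Among vesicle membrane proteins Sv2a, the target of an antiepileptic drug, had -0.19, Syngr1 0.51 and Syngr3 0.34. Rab3a, Rab3b and Rab3c had -0.17, 0.12 and -0.40. In endocytosis, Snap91, a clathrin assembly protein, had 0.00 and Dnm1, which cuts vesicles free, had 0.06. Among synaptotagmins not called, Syt13 had 0.60 (adjusted p = 0.378), Syt2 0.30, Syt11 0.13, Syt5 -0.10 and Syt4 -1.68 (SE 0.62, adjusted p = 0.215). Syn3 completed the synapsins at 0.09.

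Syt4 measured 1.66, 1.03, 2.89 and 1.52 CPM in WT PAX6+ and 0, 1.38, 0.439 and 0.255 CPM in KO PAX6+. Only KO replicate 2 reached the WT range, and without it Syt4 was called lower, which makes 5 called members. The 4 members too low to be tested in PAX6+ were Sv2b (0.0683 to 1.32 CPM in WT, 0 to 0.17 in KO), Cplx1 (0.102 to 0.816 and 0.0878 to 0.425), Syt6 (0.205 to 3.24 and 0.176 to 0.689) and Rph3a (0 to 1.22 and 0.085 to 0.527). Without the filter on low counts, Sv2b and Syt4 were called lower and 6 members in all. The 10 members with the largest log2 fold changes between WT PAX6-TBR2- and WT PAX6+, a set chosen after their values were seen, hold the 4 untested members (Rph3a, Cplx1, Sv2b and Syt6) and 6 that were tested in KO against WT PAX6+. For Rab3c, Snap25, Ppfia2, Syt4, Syt1 and Unc13a the WT values were 7.19, 6.84, 5.53, 5.51, 5.42 and 5.12. Their KO values were -0.40, -0.52, 0.03, -1.68, 1.36 and -0.25, of which that of Syt1 was called. Both comparisons use the WT PAX6+ libraries.

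Markers of other cells were measured beside these changes. None of the 9 neuron markers was called higher in KO PAX6+, and Dcx was called lower (log2 fold change -1.01, adjusted p = 0.0081). Their summed level was 364 to 444 CPM in WT and 376 to 391 CPM in KO. Of 6 intermediate progenitor markers, Eomes (-0.74) and Insm1 were called lower, with sums of 315 to 439 and 279 to 381 CPM. Of 4 interneuron markers tested out of 8, Gad2 was called lower, with sums of 7.93 to 32.7 and 7.48 to 9.41 CPM. Of 7 Cajal-Retzius markers, 3 were tested and none was called, with sums of 31.7 to 292 and 15.1 to 96.9 CPM. The radial glia marker Slc1a3 was called higher out of 8, with sums of 2841 to 3315 and 3230 to 3828 CPM. Microglia markers summed to at most 2.83 CPM, with C1qa and C1qb at 0, and no erythroid, endothelial or mural marker was called. The part of these cells in the members' changes was not tested.

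**Figure D4:**
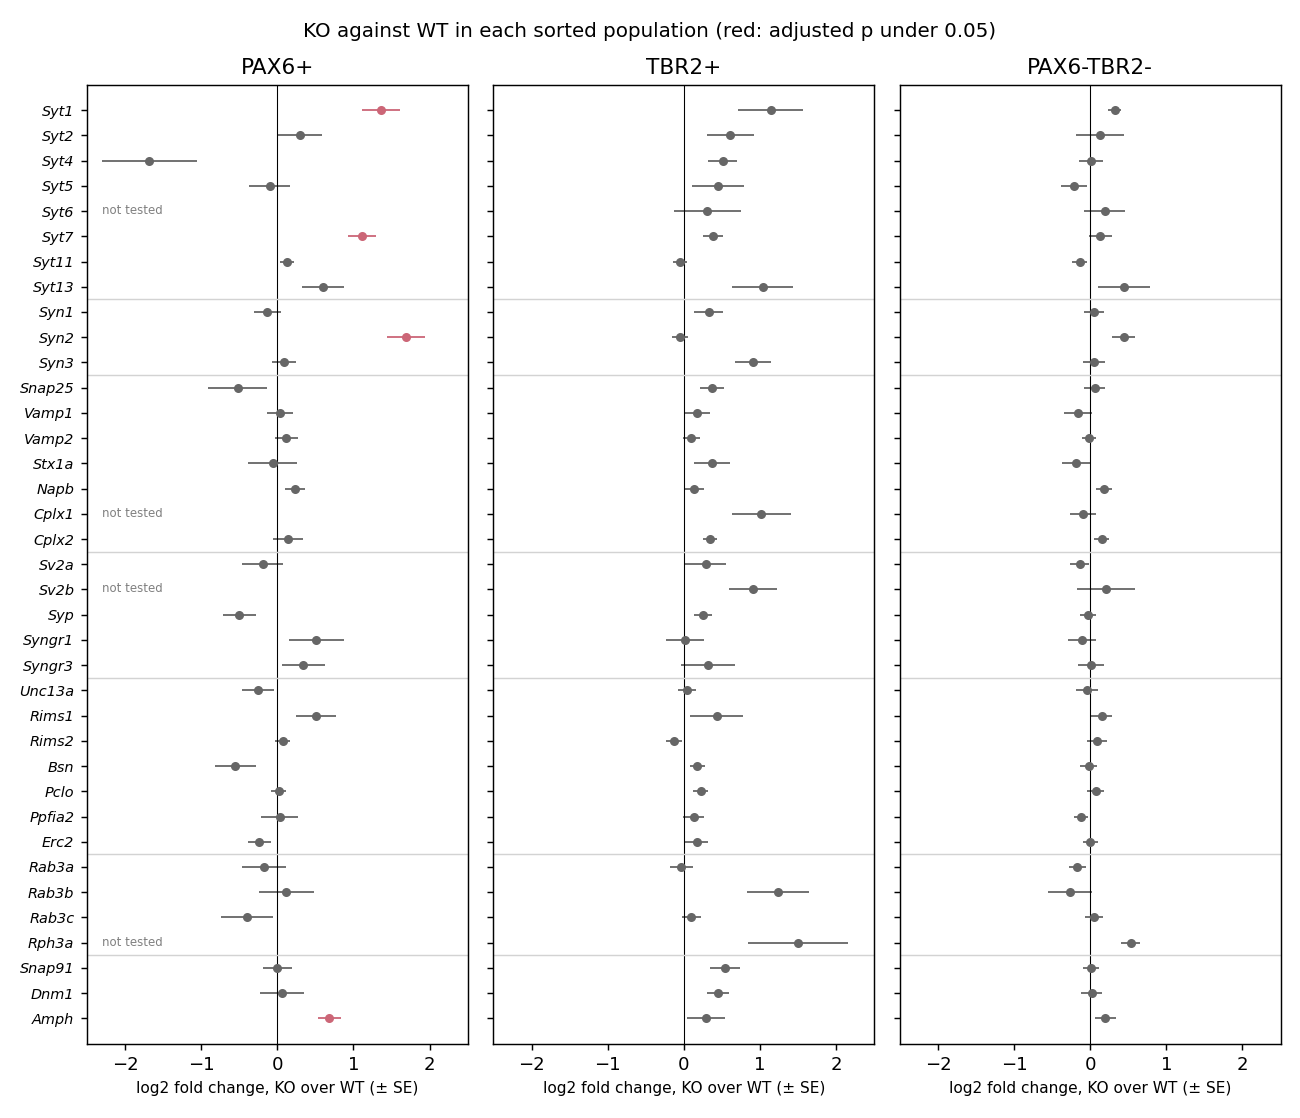
Log2 fold change of each member, KO over WT, with its SE, in PAX6+, TBR2+ and PAX6-TBR2- (4 libraries per genotype), red where the adjusted p was under 0.05. Red points occur in PAX6+ only (Syn2, Syt1, Syt7 and Amph), most points in TBR2+ lie right of 0 (33 of 37), and those in PAX6-TBR2- run from -0.26 to 0.53.

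In TBR2+ cells none of the 37 members was called by edgeR, beside 1.76% of all 12687 genes tested (1.1% higher, 0.662% lower). The log2 fold changes nevertheless leaned to one side: 33 were above 0 (89.2%, beside 50.4% of all genes) and 4 below. Their median was 0.32, beside 0.00 for all genes. The members differing at an unadjusted p under 0.05 numbered 14, all higher in KO, and DESeq2 called 2, Syn3 and Cplx2. Shares of all genes were not computed at that p, for DESeq2 or for the alternatives that follow. The count moved with single libraries: without KO TBR2+ replicate 1, Rph3a, Snap91, Sv2b, Syn3 and Syt4 were called (5), and without WT TBR2+ replicate 4, Rab3b and Syn3 (2). Without the filter on low counts 9 members were called, and with all populations in 1 fit 1 (Syn3). Leaving out 1 library at a time gave 30 to 34 members above 0 and medians of 0.19 to 0.47, the lowest without KO TBR2+ replicate 4.

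The summed member level was 2353, 2666, 2693 and 2772 CPM in KO TBR2+, beside 2103, 2280, 2166 and 2542 CPM in WT TBR2+, so WT replicate 4 lay within the KO range. As a share of all counts, without TMM scaling, the members took 0.183%, 0.218%, 0.182% and 0.222% in WT and 0.21%, 0.196%, 0.222% and 0.221% in KO. WT replicates 2 and 4 then lay within the KO range, and the means scaled to library totals were 2010 and 2125 CPM. The smallest adjusted p was that of Syn3 (0.0805), at 7.43, 8.32, 7.33 and 12.8 CPM in WT and 10.9, 14.2, 20.6 and 22.3 CPM in KO. WT replicate 4 again lay among the KO values (log2 fold change 0.91, SE 0.24). Cplx2 measured 249, 222, 232 and 276 CPM in WT and 339, 295, 321 and 285 CPM in KO, without overlap (0.34, SE 0.09, adjusted p = 0.103). The members whose KO libraries all lay above all WT libraries were 6 of 37 (Syt2, Syt7, Syt13, Cplx2, Rab3b and Dnm1), beside 3.74% of all genes, and none lay wholly below, beside 3.15%.

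The largest log2 fold changes in TBR2+ were those of members at low levels, and their spread differed. Rph3a, a Rab3 effector, measured 1.52, 1.47, 2.75 and 3.6 CPM in WT and 0.446, 3.14, 7.19 and 15.8 CPM in KO (1.50, SE 0.66, adjusted p = 0.369). KO replicate 1 lay below and KO replicate 4 far above all WT libraries. Rab3b followed with 1.24 (SE 0.41), Syt1 with 1.14 (SE 0.43), Syt13 with 1.04 (SE 0.40) and Cplx1 with 1.02 (SE 0.39). All KO libraries of Rab3b and Syt13 lay above all their WT libraries, and those of Syt1 and Cplx1 did not. Sv2b, a vesicle glycoprotein, had 0.91 (SE 0.32), Snap91 0.54, Syt4 0.51, Dnm1 0.45, Syt7 0.38, Snap25 0.37 and Pclo 0.22, each at an unadjusted p under 0.05. Rims2 (-0.13), Syn2 (-0.05), Syt11 (-0.05) and Rab3a (-0.03) were the 4 below 0.

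The neuron marker Stmn2, a growth cone protein gene, measured 10, 26.1, 15 and 45.3 CPM in WT TBR2+ and 11, 38.5, 55.6 and 100 CPM in KO TBR2+ (log2 fold change 1.08, adjusted p = 0.394). Its lowest library in KO was replicate 1 and its highest in both genotypes replicate 4, as for Rph3a and Syt1. None of the 9 neuron markers was called in TBR2+, and their sums were 5684 to 6880 CPM in WT and 5351 to 7330 CPM in KO. Of the 7 Cajal-Retzius markers, all tested and none called, all 7 were above 0, with sums of 193 to 626 and 453 to 670 CPM. Interneuron markers summed to 5.76 to 8.24 and 4.08 to 6.99 CPM, with Slc32a1 at no more than 3 reads in any library. The share of reads from the mitochondrial genome was 24.7% to 33.1% in WT TBR2+ and 30.5% to 39.3% in KO TBR2+, and leaving these genes out left the count of called members at 0. The part of these cells and of RNA quality in the members' lean was not tested.

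In PAX6-TBR2- cells, where 0.00774% of all genes were called (1 gene of 12928), edgeR and DESeq2 called none of the 37 members. There were 23 members above 0 (62.2%, beside 50.1% of all genes) and 14 below. Their median was 0.02, beside 0.00 for all genes. Without KO PAX6-TBR2- replicate 1 the count above 0 was 14, and without WT replicate 2 or 4 it was 17. At an unadjusted p under 0.05 there were 3, all higher in KO, with no share of all genes computed. Rph3a measured 61.7, 54.3, 67.7 and 76 CPM in WT and 78.1, 89.3, 111 and 99.5 CPM in KO, without overlap (0.53, SE 0.13, adjusted p = 0.404). Syt1 measured 102, 106, 115 and 106 CPM in WT and 138, 133, 143 and 122 CPM in KO, also without overlap (0.32, SE 0.09, adjusted p = 0.53). Syn2 averaged 20.9 and 28.4 CPM (0.44, SE 0.15, adjusted p = 0.586). Members with separated libraries were 2 of 37, beside 1.82% of all genes above and 2.37% below.

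Of the SNARE genes in the neurons, Snap25 averaged 398 and 415 CPM (0.06, SE 0.14), Vamp2 167 and 165 (-0.02, SE 0.09) and Stx1a 17.9 and 15.9 (-0.18, SE 0.19). Syp averaged 119 and 117 (-0.03, SE 0.11) and Syn1 116 and 119 CPM (0.05, SE 0.13). None of these genes was called. Over the 7 active zone members the log2 fold changes ran from -0.12 to 0.15. Interneuron markers, whose cells Emx1-Cre does not reach, summed to 390 to 1053 CPM in WT PAX6-TBR2- and 531 to 1235 CPM in KO. All 8 were above 0 and none was called. Their part in these values was not tested.

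Whether the KO effect differed between populations was tested as an interaction. Syn2 was the only member whose difference in effect between TBR2+ and PAX6+ was called (-1.74, SE 0.23, adjusted p = 0.000305). Of all genes, 0.612% were called (0.213% higher, 0.399% lower). In TBR2+, Syn2 measured 59.7, 59, 61.9 and 69.7 CPM in WT and 62.3, 59.4, 61.3 and 59.6 CPM in KO, overlapping throughout. The call held in all 22 alternatives. For Syt1, Syt7 and Amph the differences were -0.22 (SE 0.54), -0.73 (SE 0.23, adjusted p = 0.264) and -0.39 (SE 0.29), and none was called. In the other direction Sv2b (4.35, adjusted p = 0.0812), a fitted value that rests on 0 to 2 reads per KO PAX6+ library, and Syt4 (2.17, adjusted p = 0.109) had the smallest adjusted p-values. Sv2b was called as well with DESeq2 and without WT PAX6+ replicate 2, WT TBR2+ replicate 4 or KO TBR2+ replicate 1, and Syt4 without KO PAX6+ replicate 2, which makes 2 called members each time. Without the filter on low counts 7 members were called.

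Between PAX6-TBR2- and PAX6+, the effect was smaller in PAX6-TBR2- for Syn2 (-1.25, SE 0.28, adjusted p = 0.0313) and Syt1 (-1.03, SE 0.21, adjusted p = 0.018), beside 0.775% of all genes called (0.199% higher, 0.576% lower). The Syn2 call was lost in 9 of 22 alternatives (adjusted p up to 0.0825), each of them leaving out 1 library: WT PAX6+ replicate 1 or 2, KO PAX6+ replicate 3 or 4, WT PAX6-TBR2- replicate 3 or 4, or KO PAX6-TBR2- replicate 1, 2 or 4. The Syt1 call was lost in 3 of 22: without WT PAX6+ replicate 1, without KO PAX6+ replicate 2, and with all populations in 1 fit (adjusted p up to 0.546). No member was left without WT PAX6+ replicate 1. Without the filter on low counts 5 members were called. Between PAX6-TBR2- and TBR2+, edgeR and DESeq2 called no member, beside 0.051% of all genes (0.0219% higher, 0.0291% lower). There 34 differences were below 0 and 3 above (8.11%, beside 45.7% of all genes), with a median of -0.28 beside -0.02. This contrast uses the same TBR2+ libraries as the lean above 0 in KO against WT TBR2+, so the counts are not separate from that lean. An unadjusted p under 0.05 was found for 5 members, with no share of all genes computed.

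Genes outside the 37 members that act around them were followed in 4 further lists. Each list is to be read beside the shares of all genes called. These were 2.45% higher and 1.19% lower in PAX6+, 1.1% and 0.662% in TBR2+, and 0.00774% in either direction in PAX6-TBR2-. Of 46 other presynaptic genes, 39 were tested in PAX6+ and 1 rose, a share near that of all genes called higher. It was Syt17, a synaptotagmin without calcium binding, and none was called lower. Syt17 measured 0.7, 1.23, 1.51 and 1.73 CPM in WT and 4.03, 3.06, 6.93 and 3.74 CPM in KO, without overlap (1.78, SE 0.35, adjusted p = 0.00624). In TBR2+ and in PAX6-TBR2-, 37 were tested and none was called by edgeR. The medians were -0.04, 0.07 and 0.05.

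Of the 8 vesicular transporters that load vesicles with transmitter, 2 were tested in PAX6+ and none was called. In TBR2+, where 3 were tested, Slc17a7, the glutamate transporter of mature cortical neurons, rose. It measured 19.7, 29.2, 22.2 and 33.9 CPM in WT TBR2+ and 45, 67.6, 61.3 and 44.7 CPM in KO, without overlap (1.05, SE 0.18, adjusted p = 0.00586), and the call held in all 16 alternatives. Slc17a6, the glutamate transporter of immature neurons, averaged 322 and 378 CPM there (0.23, adjusted p = 0.286). In PAX6-TBR2-, 4 were tested and none was called. Slc17a7 averaged 47 and 50.5 CPM in that population (WT and KO), beside its mean of 54.7 CPM in KO TBR2+.

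Of 12 genes for presynaptic calcium channels and adhesion, Ptprd, an adhesion phosphatase (0.54, SE 0.10, adjusted p = 0.00431), and Cacna2d1, a calcium channel subunit (0.83, SE 0.20, adjusted p = 0.0303), rose in KO PAX6+. None was called in TBR2+ or PAX6-TBR2-. The Cacna2d1 call was lost without WT PAX6+ replicate 1, 2 or 4 or KO PAX6+ replicate 1 or 2.

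Of 23 postsynaptic genes, 21 were tested in PAX6+, where 2 rose and 2 fell. Dlgap2, a scaffold of the postsynaptic density, measured 6.74, 5.33, 2.76 and 7.11 CPM in WT and 30.6, 24.3, 31.5 and 16.5 CPM in KO (2.26, SE 0.26, adjusted p = 5.25e-05). Gria4, an AMPA receptor subunit, rose by 0.84 (SE 0.15, adjusted p = 0.00334). Grin2b, an NMDA receptor subunit, measured 30.8, 14.1, 51.6 and 19.7 CPM in WT and 4.13, 4.52, 11.3 and 6.97 CPM in KO (-2.10, SE 0.36, adjusted p = 0.00217). Gria3, a further AMPA receptor subunit, fell by 0.95 on the log2 scale (SE 0.21, adjusted p = 0.0155), a call lost without WT PAX6+ replicate 3, without KO PAX6+ replicate 2 and with all populations in 1 fit. The WT and KO libraries of Dlgap2 and Grin2b did not overlap. In TBR2+, 22 were tested and Gria4 rose (0.93, SE 0.22, adjusted p = 0.0449), a call lost in 7 of 16 alternatives, each without 1 library: any WT replicate or KO replicate 2, 3 or 4. In PAX6-TBR2-, 22 were tested and none was called.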

How the data were processed

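Groups and replicate numbers came from the sample titles. The deposited count tables hold raw counts per Ensembl gene with 2 lanes per library, summed here. Tools named, per the submitters' processing notes, are cutadapt, FastQC, featureCounts, STAR and DESeq2, with build mm10. The gene annotation and the strandedness of counting were not given in the sources used here. Per the labels' protocols, cDNA was amplified isothermally and then by PCR; molecular identifiers are not mentioned, so reads need not be independent molecules. The deposited normalized tables hold signal values: all (100%) were whole multiples of 1 read (tolerance 1e-06). These reads matched the raw counts exactly in PAX6+, were 1.44 to 1.7 times them in total in the other groups (where 1 column equalled a raw library), and served as an alternative.

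Genes were named with GENCODE M21 (37693 of 39017; the unmatched 1324 held 0.199% to 0.353% of counts and stayed in). Tests used edgeR 4.0.16 in R 4.3.3 (filterByExpr, TMM, quasi-likelihood F test, two-sided, Benjamini-Hochberg over all genes tested, called at adjusted p under 0.05), over 9 comparisons. An SE is the log2 fold change divided by the square root of F. Adjusted p-values are edgeR's unless DESeq2 (1.42.0) is named. Printed CPM are TMM-scaled over all 24 libraries, and separation of libraries was read from CPM scaled within a population. Alternatives were other size factors, DESeq2, no filter, at least 10 counts in 4 libraries, a replicate block, all populations in 1 fit, recovered reads, no mitochondrial genes and leaving out each library. Members with called differences are given per library, other members by fold change, and up to 5 called genes per further list. 1 gene of a further list is not reported here. Members, lists and motifs were chosen with earlier results of these data known. The fits were tested on simulated data.

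Pairs of libraries of 1 group differed by more than sampling noise (chi-square per degree of freedom 5.65 to 45.5, against 0.976 to 1.02 between lanes). In PAX6+, same-numbered WT and KO libraries deviated together (correlations 0.16 to 0.36), so their numbers can be read as pairs there. The printed fits do not use these pairs. With the replicate block, run as an alternative, no call of a member in KO against WT PAX6+ changed, and 21 members were above 0 and 12 below. In TBR2+ (0.05 to 0.41) and PAX6-TBR2- (0.08 to 0.37) they did not in every pair.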

Additional observations from a re-analysis of the deposited data

Results flagged for a closer look

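Of 222 sets of 4 libraries (37 members in 6 groups), 11 held 1 library far from the other 3, which chance gives in about 1 of 20 sets. In WT PAX6+, replicate 1 was high for Syt6 (3.24 CPM, others 0.205 to 0.711), Syngr3 (5.16, others 2.64 to 2.87) and Rph3a (1.22, others 0 to 0.126), and replicate 2 was low for Rab3c (1.16, others 2.34 to 2.45). In KO PAX6+, replicate 1 was high for Syt11 (421 CPM, others 355 to 360), Syt13 (5.68, others 3.67 to 3.91), Erc2 (32.2, others 23.9 to 25.3) and Rab3a (3.51, others 2.11 to 2.29). Replicate 2 was low for Amph (14.5, others 18.3 to 18.8), and replicate 4 was the only one with reads of Sv2b (0.17, others 0). In KO PAX6-TBR2-, replicate 3 was high for Syt13 (3.37 CPM, others 1.7 to 1.88).

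The genotype effect differed between populations by an interaction test for Syn2 in TBR2+ against PAX6+ (-1.74 on the log2 scale) and in PAX6-TBR2- against PAX6+ (-1.25), and for Syt1 in PAX6-TBR2- against PAX6+ (-1.03).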

How the results depend on the processing

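No called member changed direction under any alternative run. Of the 37 members, the count called in KO against WT PAX6+ was 4 to 6 under every alternative. In TBR2+ it was 0, and 2 with DESeq2, 9 with no filter, 10 with the replicate block, 1 with all populations in 1 fit and 0 to 5 leaving out 1 library. In PAX6-TBR2- it was 0, and 1 with no filter and 2 with the replicate block. For the effect in TBR2+ minus PAX6+ it was 1, and 2 with DESeq2, 7 with no filter, 6 with the replicate block and 1 to 2 leaving out 1 library. For PAX6-TBR2- minus PAX6+ it was 2, and 5 with no filter, 4 with the replicate block, 1 with all populations in 1 fit and 0 to 2 leaving out 1 library. For PAX6-TBR2- minus TBR2+ it was 0, and 1 with no filter and 3 with the replicate block. The causes were not tested, and shares of all genes were not computed under the alternatives. The WT comparisons called 32 to 34, 33 to 34 and 33 to 36 members leaving out 1 library, and the other alternatives stayed within 1.5 times.

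Only in PAX6+ do same-numbered libraries meet the rule for pairs, with every library closest to its own number. In TBR2+ and PAX6-TBR2-, and between WT populations (correlations -0.15 to 0.14), they share only a number, so calls made with the block there rest on an unproven pairing.

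With library totals in place of TMM, an alternative chosen after seeing the data, the summed member level moved from 799 to 1006 CPM in WT PAX6+, from 872 to 1092 in KO PAX6+, from 2273 to 2010 in WT TBR2+ and from 2621 to 2125 in KO TBR2+, and the order of the populations was the same. The KO mean in TBR2+ lay nearer to the WT mean on that scale. Few reads stand behind low members, such as 0 to 14 of Rph3a per PAX6+ library.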
